A study of Danio rerio with 12 samples.

Results

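The regions described here are stretches of open chromatin of the zebrafish embryo whose accessibility was higher with TDCIPP and lower with decitabine (DAC), each against its own DMSO controls. The 12 ATAC-seq libraries, made by letting a transposase insert sequencing adapters where DNA is open, came from whole wild-type embryos at 6 hours post fertilization and fall into 4 groups of 3. The treated groups were embryos in 3.12 µM TDCIPP, a chlorinated organophosphate flame retardant, and embryos in 100 µM DAC. Each had a DMSO group of its own, at 0.1% DMSO, and all groups were of the AB/Tuebingen strain and were kept about 50 to a well from newly fertilized eggs on. Embryos were pooled for each library, so fewer cells with a region open and less opening per cell cannot be told apart.

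Members were chosen by their measured values. Of the 35040 regions that the TDCIPP table lists and the 45019 of the DAC table, 24956 could be paired by shared bases, and 11930 pairs had a level of at least 6.5 in the TDCIPP table and at least 4.5 in the other. A level is a region's mean normalized read count over the libraries of a table, on the log2 scale. A member had a TDCIPP minus DMSO difference of at least 0.2 and a DAC minus DMSO difference of -0.2 or less, both on the log2 scale. This left 212 members, or 1.78% of the 11930 pairs, and the remaining 11718 pairs are called the other pairs. Since the rule used the levels and differences of both tables, these are given as a description with no test. Only group means were deposited, with none for a library on its own, and replicate spread therefore enters through the authors' p-values alone. The labels do not say that the libraries of a group came from separate clutches, so those p-values may measure technical spread. In the DAC table the treated column is headed 5AzaC, whereas the sample labels give decitabine, whose short name DAC is used throughout. Positions are those of the TDCIPP table on GRCz11, and the genes at them were not analysed here. Reads with DAC and in its DMSO group are those of the paired DAC region, whose bounds can differ.

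Open chromatin marks DNA that is free enough of nucleosomes for regulatory proteins to bind, as at promoters and enhancers. At this stage the zebrafish embryo enters gastrulation, soon after its own genome has become active. Decitabine is a cytidine analog that enters newly made DNA and traps DNA methyltransferases, and DNA methylation helps to keep repetitive elements silent in vertebrates. The title of the series names de-repression of such elements and competition for H2A.Z, a histone variant, and the comparisons ask where accessibility moved under each compound.

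The 212 members did not form a single kind of region. Some lay side by side in short runs and were mostly strongly covered, and others were scattered over the chromosomes and mostly weakly covered. Of the 212, 118 (55.7%) had another member within 50 kb and formed 30 runs of 2 to 8 members, while 94 stood alone. That share was 41.3% with a threshold of 0.1, 40.7% with level minimums lower by 0.5 and 48.6% with differences centred on each table's median. For DAC the median difference was 0.1 over all regions of its table and 0.31 over the pairs at the kept levels. Among the far more numerous other pairs, 68.8% had another of their own set within 50 kb. Any pair at the kept levels lay within 50 kb of 84.0% of the members and of 69.1% of the other pairs, the members' own runs included. The runs of at least 3 members numbered 23 and held 104 members. With the runs counted once, the 212 members lay at 124 places.

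The size of the differences was modest. The TDCIPP minus DMSO difference had a median of 0.32 on the log2 scale (quartiles 0.25 to 0.40, highest 0.70), which is a ratio of 1.25. The DAC minus DMSO difference had a median of -0.31 (quartiles -0.36 to -0.27, lowest -0.68), a ratio of 0.81. Over all 11718 other pairs the medians were -0.04 for TDCIPP and 0.31 for DAC. Members thus stood further from the other pairs in the DAC comparison than their own value shows. The rule set the sign and least size of the members' differences, so nothing is read from this distance.

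**Figure D1:**
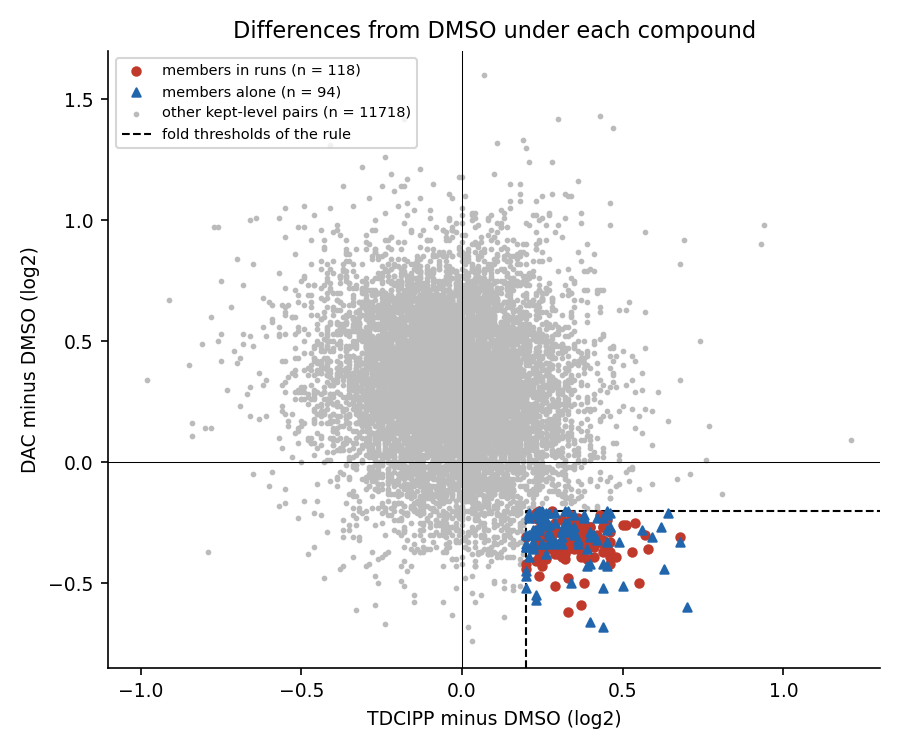
TDCIPP minus DMSO difference (x axis, log2) against DAC minus DMSO difference (y axis, log2) for the 11930 pairs at the kept levels, with members in runs as circles, members alone as triangles and other pairs as small grey points. The 212 members lie in the lower right corner that the dashed thresholds of 0.2 and -0.2 cut off, while the bulk of the other pairs lies around a DAC difference of 0.31.

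In the authors' deposited table for TDCIPP, 19 of the 212 members (8.96%) had an adjusted p under 0.05, where 0.362% of all 35040 regions and 0.36% of the 11930 pairs were called as higher. The rule used this contrast, and nothing is read from the count. Of these 19 members, 14 lay in runs, as did 118 of all 212 members (55.7%). At an unadjusted p under 0.05 the authors' deposited table for TDCIPP called 128 of the 212 members, where 4.77% of all regions and 4.11% of the 11930 pairs were called as higher. In the authors' deposited table for DAC no member passed, since the adjusted p was 1 throughout and 0% of regions were called as lower. The lowest unadjusted p of a member in the authors' deposited table for DAC was 0.197. By that table, 0.251% of all 45019 regions and 0% of the 11930 pairs had a lower level at an unadjusted p under 0.05. The lower level of these regions with DAC is therefore an ordering of group means and not a change that passed a test.

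Many members differed from the other pairs in the control levels of the 2 tables, which the rule also used. A region of the DAC table usually had far fewer reads than its partner, with a median of 18.1 per region over the whole DAC table against 83.9 over the TDCIPP table. Over the other pairs the DMSO level of the DAC table minus the DMSO level of the TDCIPP table had a median of -2.43 on the log2 scale (quartiles -2.77 to -2.08). Among members the median of this difference between control levels was 0.80 (quartiles -1.56 to 1.38). The DMSO level was higher in the DAC table for 127 of the 212 members (59.9%) and for 87 of the 11718 other pairs (0.742%). The members' share was 35.0% with a threshold of 0.1, 39.4% with level minimums lower by 0.5 and 20.2% without the runs.

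By the rule, a member's DMSO level lay at least 0.2 below its treated level in the TDCIPP table. In the DAC table it lay at least 0.2 above the treated level. The rule thus favours members with a low DMSO level in the TDCIPP table and a high one in the DAC table. In the treated groups the rule works the other way. There 110 of 212 members (51.9%) had a higher level with DAC than with TDCIPP, against 97 of 11718 other pairs (0.828%). Seen from the control levels, 119 pairs had a DMSO level more than 1 higher in the DAC table, and 95 of them (79.8%) were members. Over all 119 the median TDCIPP difference was 0.35 and the median DAC difference was -0.31. The DMSO levels enter both differences, so nothing is read from this share or these medians. By the treated levels, 44 pairs had a level more than 1 higher with DAC than with TDCIPP, of which 25 (56.8%) were members. Over the 44 the medians were 0.275 for TDCIPP and -0.275 for DAC. The treated levels enter the differences too, so nothing is read from the treated shares or from these medians.

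**Figure D2:**
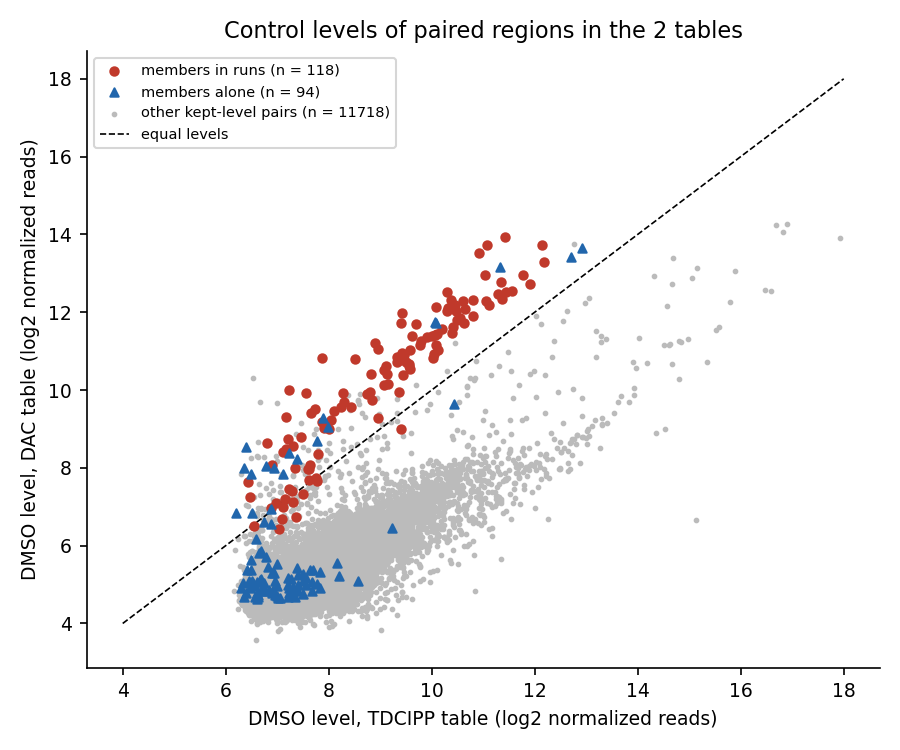
DMSO level in the TDCIPP table (x axis, log2 normalized reads) against DMSO level in the DAC table (y axis, log2 normalized reads) for the 11930 pairs, with the dashed line at equal levels. Most members in runs (circles) form a band above the line, while the other pairs (grey) and many members alone (triangles) lie well below it, around a difference of -2.43.

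Among the 127 members with the higher DMSO level in the DAC table the median was 809 normalized reads with TDCIPP and 644 in its DMSO group. The same 127 had a median of 1278 normalized reads with DAC and 1675 in its DMSO group. The other 85 members had a median of 163 normalized reads with TDCIPP against 128 in its DMSO group, and of 27.1 with DAC against 33.8 in its DMSO group. By these medians the first kind had more reads in all 4 groups. Its lowest values were, however, 73.5 in the DMSO group of the TDCIPP table and 75.6 with DAC. In the DAC table the higher reads were largely set by the split itself, given the minimum level of 6.5 in the TDCIPP table. The median TDCIPP differences were 0.35 for the first kind and 0.27 for the second, and the median DAC differences were -0.31 and -0.30.

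Level counts the reads of a whole region, so width enters it. Members had a median width of 1774.5 bp in the TDCIPP table (quartiles 1286 to 2671.5) against 1476 bp for the other pairs (quartiles 1098 to 1997). In the DAC table their median width was 2209 bp against 1318 bp for the other pairs, and the DAC region was the wider of the pair in 169 of 212 members (79.7%) and in 37.2% of the other pairs. All 127 members with the higher DMSO level in the DAC table had the wider region there. So did 86 of the 87 other pairs with that order of control levels (98.9%). A DAC region that reached over 2 or more TDCIPP regions belonged to 18 members (8.49%) and to 1.01% of the other pairs, and in such pairs the 2 levels cover different stretches. Per kilobase of region, members had a median of 183 normalized reads with TDCIPP and 151 in its DMSO group, and of 119 with DAC and 151 in its DMSO group. The equal DMSO medians pool 2 kinds. The 127 members with the higher DMSO level in the DAC table had 279 per kilobase in the DMSO group of the TDCIPP table. In the DMSO group of the DAC table they had 487. For the other 85 members these medians were 97.9 and 25.7. The DMSO levels made this split, so nothing is read from the contrast. The other pairs had 153 per kilobase with TDCIPP and 156 in its DMSO group, and 39.8 with DAC and 32.1 in its DMSO group.

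The members took up a large part of the DAC table. They were 0.471% of its regions and held 13.5% of its normalized reads with DAC and 18.2% in its DMSO group. In the TDCIPP table they were 0.605% of the regions and held 2.29% of the reads with TDCIPP and 1.76% in its DMSO group. The 118 members in runs accounted for most of this, with 11.6% of the reads with DAC and 15.7% in its DMSO group. The sources used here do not say how libraries were scaled, and the part of scaling in these differences was not tested.

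**Figure D3:**
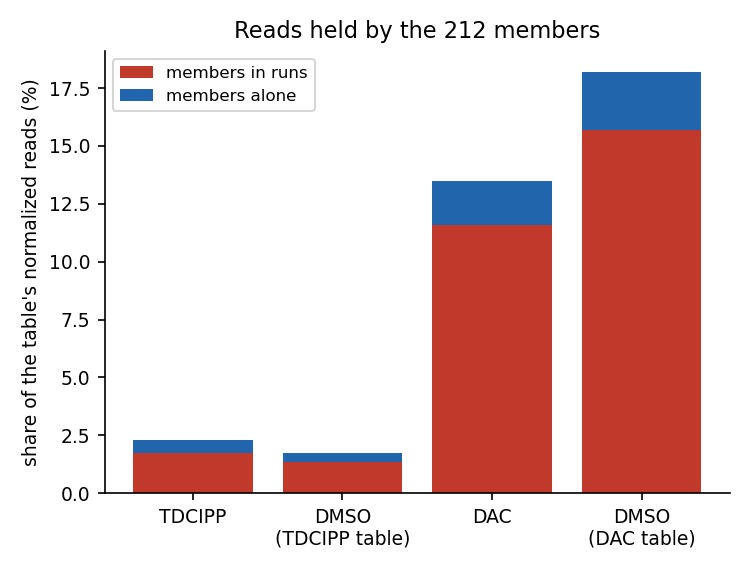
Share of a table's summed normalized reads (y axis, percent) that fell in the 212 members, for TDCIPP and its DMSO group and for DAC and its DMSO group, with members in runs and members alone stacked. Members held 2.29% with TDCIPP and 1.76% in its DMSO group, against 13.5% with DAC and 18.2% in its DMSO group.

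The share of members was higher at DAC table levels of 8 or more, a level that the rule also used. Of the 145 pairs with a DAC table level of 10 or more, 74 (51.0%) were members, and of the 325 with a level from 8 to 10, 34 (10.5%) were. From 6 to 8 the share was 1.01% and below 6 it was 0.865%. By the TDCIPP table the share of members was 7.58% of the 620 pairs at a level of 10 or more, 1.17% of those from 8 to 10 and 1.63% of those below 8.

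Members were placed unevenly. Chromosome 8 held 26 of the 212 (12.3%) against 3.74% of the other pairs, chromosome 17 held 20 (9.43% against 3.15%) and chromosome 7 held 18 (8.49% against 5.03%). Chromosomes 1 and 12 held no member, although they had 397 and 297 other pairs, and chromosomes 6 and 25 held 1 each. A pair on chromosome 12 missed membership with a DAC difference of -0.19, and one on chromosome 1 with a DAC table level of 4.49. On chromosomes 8, 17 and 7 most members lay in runs, 22, 14 and 13 of them. Unplaced sequence held 10 members (4.72% against 2.74% of the other pairs) and alternate scaffolds, which carry another haplotype of placed sequence, held 14 (6.60% against 8.69%). Within 1 Mb of the outermost region of a chromosome lay 3.72% of the members on assembled chromosomes, against 9.96% of the other pairs there.

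**Figure D4:**
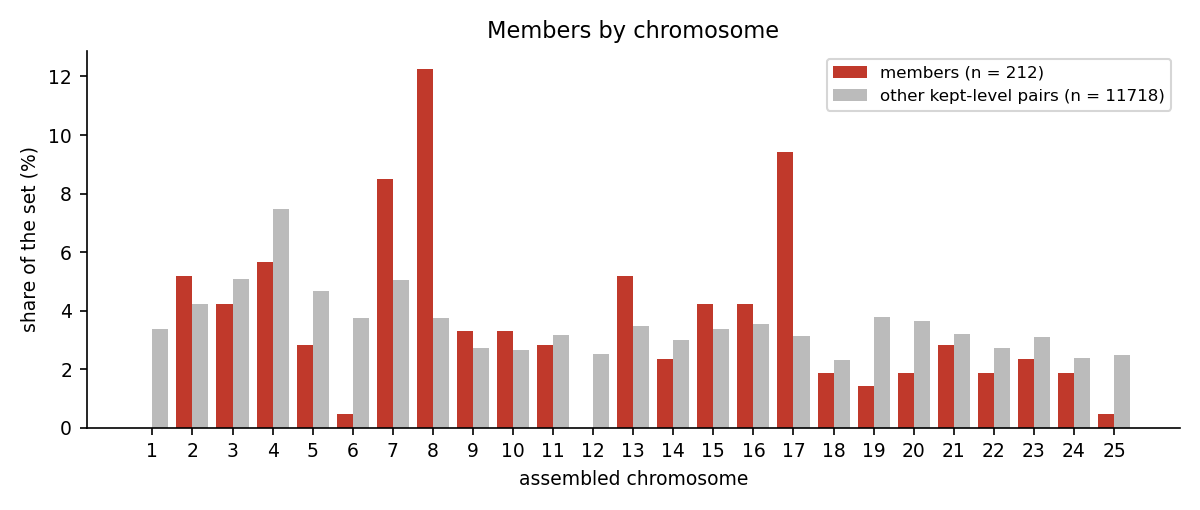
Share of the members (left bar) and of the other pairs (right bar) that lay on each assembled chromosome (y axis, percent of the set). Chromosome 8 stands highest for members at 12.3%, against 3.74% of the other pairs, and chromosomes 1 and 12 have no member bar.

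The tendency to lie together can be set beside that of the other combinations of direction at the same thresholds. Of the 1549 pairs that were lower with TDCIPP and higher with DAC, 36.2% had another of their kind within 50 kb. Of the 637 pairs that were higher with both compounds, 20.4% had one, and of the 50 that were lower with both, none had. The share among members was 55.7%, although the larger sets had more chances of a neighbour. The DMSO level was higher in the DAC table for 1 of the 1549 pairs, 8 of the 637 and 3 of the 50. Lying together also went with this order of control levels outside the members. Of the 87 other pairs with that order, 40.2% had another of their own set within 50 kb. Among the 127 members with that order the share was 83.5%, and among the 85 without it 7.06%. No test of these differences was made, because the sets were cut from the same values.

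The 30 runs held 127 pairs at the kept levels, of which 118 were members, and in 26 of the 30 runs all of them were. Each run begins and ends at a member, so these counts are largely set by how runs were formed. The 9 exceptions all had a positive TDCIPP and a negative DAC difference too, with medians of 0.13 and -0.36. Over all 11930 pairs, 883 had these signs. Runs spanned from 4.69 kb to 138 kb, with a median of 26.4 kb. The median TDCIPP difference of a run ranged from 0.23 to 0.47, and the median DAC difference from -0.415 to -0.25. In 29 of the 30 runs the median DMSO level was higher in the DAC table. Outside the 23 runs of at least 3 members but within 50 kb of them lay 23 further pairs at the kept levels, with a median TDCIPP difference of 0.10 and a median DAC difference of -0.05. Of these 23, 12 had a positive TDCIPP and a negative DAC difference, as had 883 of all 11930 pairs. The DMSO level was higher in the DAC table for 7 of the 23, and for 214 of all 11930 pairs.

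The run with most members lay on chromosome 2 from 19423096 to 19487189, where all 8 pairs at the kept levels were members. Its best covered region in the DAC table, at 19459847 to 19463949, had 1641 normalized reads with TDCIPP against 1261 in its DMSO group. The paired DAC region, from 19453818 to 19467750, had 4545 with DAC against 5833 in its DMSO group. The region at 19471097 to 19476528 had 1951 with TDCIPP against 1438 in its DMSO group, with an adjusted p of 0.0455 by the authors' deposited table, and 2876 with DAC against 3591 in its DMSO group. The 8 TDCIPP differences ran from 0.24 to 0.53 and the 8 DAC differences from -0.40 to -0.27 while the reads in the TDCIPP group ranged from 174 to 2798.

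Chromosome 10 held a run of 7 members from 16784773 to 16840734, again with no other pair at the kept levels. Its region at 16806255 to 16812385 was the member with most reads in the DAC table, 13216 with DAC against 15608 in its DMSO group. It had 3236 with TDCIPP against 2740 in its DMSO group. The DAC region of this pair was 14683 bp wide and reached over 2 TDCIPP regions, against a TDCIPP region of 6131 bp. The region at 16794028 to 16794739, with 1428 with TDCIPP against 1038 in its DMSO group, had an adjusted p of 0.0423 by the authors' deposited table. At the edge of this run, at 16784773 to 16787050, the control levels of the tables differed least, by 0.33, against up to 2.51 within the run.

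Chromosome 8 carried 4 runs of at least 3 members between 34434188 and 35065667. Over this stretch of 631 kb, which begins and ends at a member, 20 of the 36 pairs at the kept levels were members. A positive TDCIPP and a negative DAC difference were found in 32 of the 36, and in 883 of all 11930 pairs. Of the 36, 15 had the higher DMSO level in the DAC table. The run from 34725715 to 34813570 was strongly covered, as in its region at 34783275 to 34787921 with 3641 normalized reads with TDCIPP against 3019 in its DMSO group, and 4804 with DAC against 5997 in its DMSO group. The runs beside it were weaker: at 34523677 to 34525222 there were 191 with TDCIPP against 164 in its DMSO group, and 91.1 with DAC against 107 in its DMSO group. In the run from 34927447 to 35065667, the 3 regions from 35047846 on had 754.8 or more normalized reads in each of the 4 groups, while the 3 before them had 267 or fewer. Coverage thus differed widely between members of the same run.

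An alternate scaffold of chromosome 8 held 9 of the 14 members on alternate scaffolds, in runs at 92699 to 110883 and 164280 to 252051. Their levels were modest, from 139 to 232 normalized reads with TDCIPP against 118 to 197 in its DMSO group, and from 74.0 to 169 with DAC against 85.6 to 208 in its DMSO group. Here the control levels of the 2 tables were close, the DAC table's minus the TDCIPP table's running from -0.61 to 0.23. Whether these regions are copies of those on chromosome 8 itself was not analysed here.

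**Figure D5:**
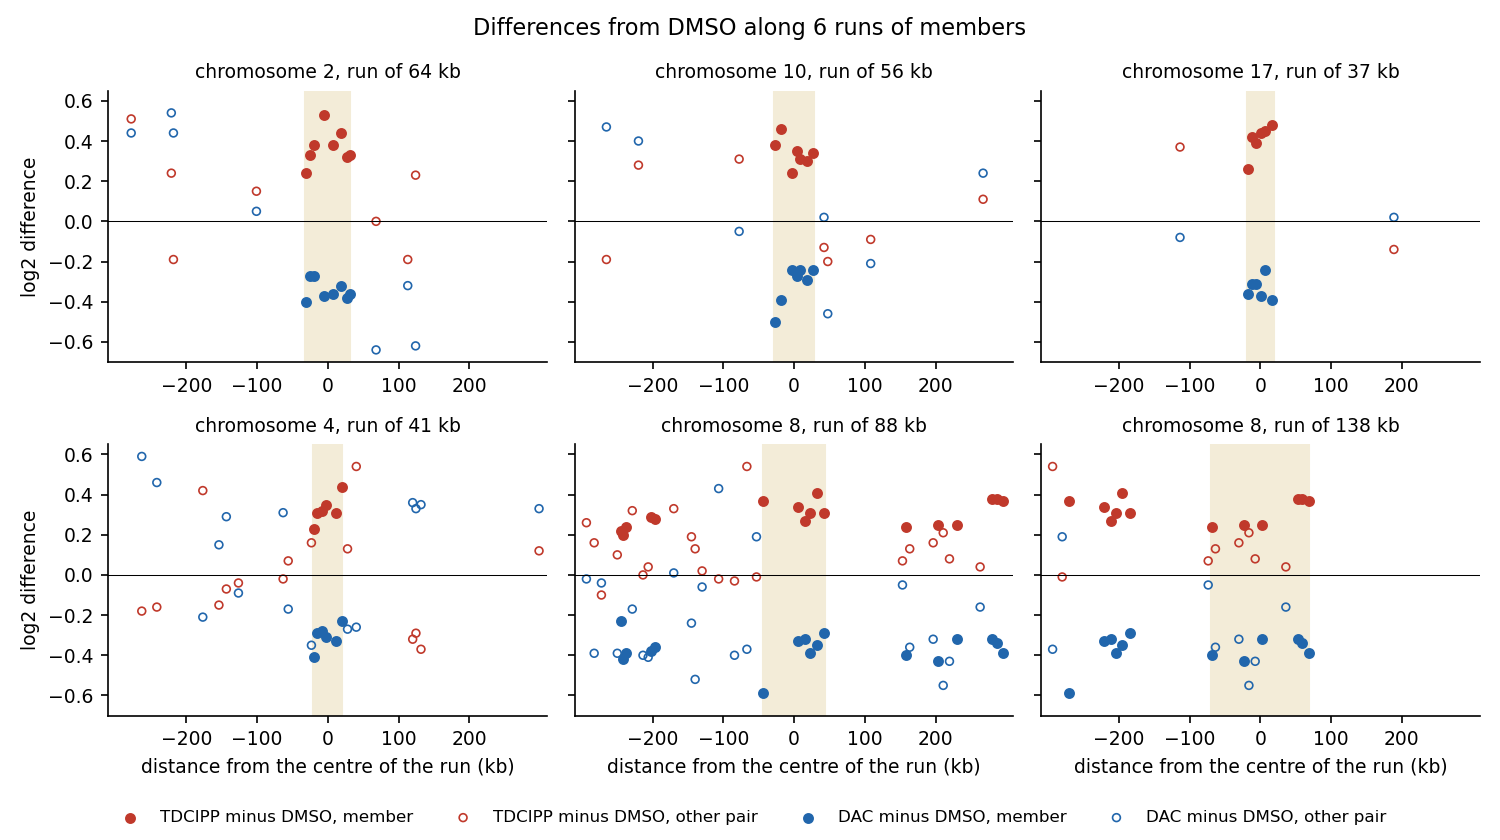
TDCIPP minus DMSO (red) and DAC minus DMSO (blue) differences (y axis, log2) of paired regions against their distance from the centre of a run (x axis, kb), for 6 runs on chromosomes 2, 10, 17, 4 and 8, whose span is shaded. Filled points are members and open points are other paired regions at any level. Within the shaded runs on chromosomes 2, 10 and 17 every point is a member, while outside them the points scatter to both sides of 0.

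Chromosome 17 held 3 runs. In the run from 46481532 to 46518770 all 6 members had similar differences, with medians of 0.43 for TDCIPP and -0.335 for DAC. Its region at 46515142 to 46518770 had 891 normalized reads with TDCIPP against 639 in its DMSO group, with an adjusted p of 0.0225 by the authors' deposited table, and 1278 with DAC against 1675 in its DMSO group. In the run from 47053694 to 47067092, the region at 47059147 to 47062325 had 1520 with TDCIPP against 1105 in its DMSO group, with an adjusted p of 0.0167 by the authors' deposited table. The third run, from 39913034 to 39963701, held 5 members with a median TDCIPP difference of 0.40 and a median DAC difference of -0.27.

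Chromosome 7 also held 3 runs. The run from 55067922 to 55091012 had the widest range of TDCIPP differences of the 30 runs, from 0.28 to 0.68. Its region at 55089270 to 55091012 had 180 normalized reads with TDCIPP against 112 in its DMSO group, with an adjusted p of 0.0459 by the authors' deposited table, and 322 with DAC against 399 in its DMSO group. The region at 55082126 to 55084540 went against the rest of this run in its control levels, with 996 with TDCIPP against 680 in its DMSO group, but 365 with DAC against 516 in its DMSO group. The other runs lay from 53001597 to 53028458, with 5 members, and from 64598188 to 64611110, with 3. In the first of these, the region at 53011195 to 53015185 had 9090 with TDCIPP against 6937 in its DMSO group and 12077 with DAC against 13777 in its DMSO group, and missed membership by a DAC difference of -0.19.

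An unplaced contig consisted of members alone as far as the kept levels reach. Its 4 regions between 3157 and 36193 were all members, with TDCIPP differences from 0.40 to 0.51 and DAC differences from -0.34 to -0.26. At 31546 to 36193 there were 976 normalized reads with TDCIPP against 690 in its DMSO group, with an adjusted p of 0.00864 by the authors' deposited table, and 3373 with DAC against 4040 in its DMSO group. At 10462 to 14554 there were 1184 with TDCIPP against 832 in its DMSO group, with an adjusted p of 0.0148 by the authors' deposited table, and 2778 with DAC against 3327 in its DMSO group. In that order, their DAC regions were 11055 and 8324 bp wide and reached over 3 and 2 TDCIPP regions. On a second unplaced contig all 3 pairs at the kept levels, between 310 and 39198, were members. They included the 2 widest members of the TDCIPP table, at 7149 to 14985 and at 31387 to 39198, of 7837 and 7812 bp. The first of these had 2469 with TDCIPP against 1938 in its DMSO group, and 9281 with DAC against 11747 in its DMSO group. Its DAC region was 19544 bp wide and reached over 5 TDCIPP regions.

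The remaining runs of at least 3 members lay on 7 other chromosomes. Chromosome 4 held 6 members from 28555701 to 28596449, chromosome 13 held 4 from 19110656 to 19177546 and chromosome 21 held 4 from 25839945 to 25866858. Runs of 3 lay on chromosome 3 from 55351586 to 55367637, on chromosome 5 from 58626941 to 58647107, on chromosome 14 from 20090294 to 20107506 and on chromosome 16 from 25920944 to 25946870. In the run on chromosome 14, the region at 20093736 to 20101097 had 6123 normalized reads with TDCIPP against 4545 in its DMSO group, with an adjusted p of 0.0396 by the authors' deposited table, and 10809 with DAC against 13494 in its DMSO group. Their median TDCIPP differences ran from 0.24 on chromosome 16 to 0.43 on chromosome 5, and their median DAC differences from -0.345 on chromosome 13 to -0.25 on chromosome 3. The run on chromosome 16 held the third widest member, at 25927406 to 25934874, with 5480 normalized reads with TDCIPP against 4640 in its DMSO group and 8306 with DAC against 10086 in its DMSO group. Runs of 2 numbered 7, on chromosomes 5, 8, 15 (which held 2 of them), 20, 23 and 24. The one on chromosome 24 had the greatest median difference between control levels of all 30 runs, 2.40, and its region at 16262583 to 16266316 had 1448 with TDCIPP against 1090 in its DMSO group, with an adjusted p of 0.0296 by the authors' deposited table.

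The 94 members alone were mostly of the weakly covered kind. Their median TDCIPP table level was 7.13 and their median DAC table level 4.95, and 19 of the 94 (20.2%) had the higher DMSO level in the DAC table, against 108 of the 118 in runs (91.5%). Those 19 included the members with most reads in the TDCIPP table. One, at 135526 to 137800 of an alternate chromosome 20 scaffold, had 10086 normalized reads with TDCIPP against 7750 in its DMSO group, and 10960 with DAC against 12855 in its DMSO group. Another, on an unplaced contig at 371 to 2169, had 8659 with TDCIPP against 6654 in its DMSO group, and 9410 with DAC against 10960 in its DMSO group. On chromosome 11, the region at 17565197 to 17569016 had 1479 with TDCIPP against 1090 in its DMSO group, and 2539 with DAC against 3397 in its DMSO group. At 257256 to 261090 of an alternate scaffold of that chromosome lay a member with nearly the same values, 1468 with TDCIPP against 1075 in its DMSO group and 2539 with DAC against 3421 in its DMSO group. The sources used here do not say how reads matching several places were treated.

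The lowest adjusted p of a member was at chromosome 13, 7945351 to 7946709, with 280 normalized reads with TDCIPP against 182 in its DMSO group and 0.00163 in the authors' deposited table, while it had 28.4 reads with DAC against 34.3 in its DMSO group. Chromosome 8 at 44259819 to 44260786 had 280 with TDCIPP against 181 in its DMSO group, with an adjusted p of 0.00204 by the authors' deposited table, and 20.0 with DAC against 27.1 in its DMSO group. Chromosome 17 at 29024200 to 29025305 had 198 with TDCIPP against 124 in its DMSO group, with an adjusted p of 0.0103 by the authors' deposited table, and 26.9 with DAC against 33.8 in its DMSO group. All 3 had the usual order of control levels, with far fewer reads in the DAC table. Further lone members that passed were on chromosome 6 at 42742783 to 42743971 and chromosome 23 at 28362734 to 28364349, with adjusted p-values of 0.023 and 0.0309 in the authors' deposited table.

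The greatest difference in both tables at once was on chromosome 16 at 36450743 to 36452990, which had 119 normalized reads with TDCIPP against 73.5 in its DMSO group and 75.6 with DAC against 115 in its DMSO group. These are differences of 0.70 and -0.60, with an adjusted p of 0.127 for TDCIPP and an unadjusted p of 0.256 for DAC in the authors' deposited tables. The most negative DAC difference, -0.68, was on chromosome 19 at 19117941 to 19124893, with 143 with DAC against 229 in its DMSO group, and 122 with TDCIPP against 89.9 in its DMSO group. On chromosome 24 at 13269617 to 13270564 the DAC difference of -0.66 came from 22.2 with DAC against 35.0 in its DMSO group. Chromosome 22 at 37887318 to 37888333 and chromosome 9 at 7365619 to 7366880 had DAC differences of -0.51 and -0.52 at similar coverage, with TDCIPP differences of 0.50 and 0.44.

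The edge of the set is set by the rule and not by a gap in the values. Just inside the TDCIPP threshold lay chromosome 13 at 3129939 to 3130787, with a TDCIPP difference of 0.20 and a DAC difference of -0.30. Just outside it lay chromosome 16 at 25949070 to 25950547, with 0.19 and -0.33, some 2 kb beyond the run on that chromosome. Just inside the DAC threshold lay chromosome 11 at 11460719 to 11462595, with a DAC difference of -0.20, and just outside it lay chromosome 12 at 2172684 to 2173989, with -0.19. By level, chromosome 11 at 7217145 to 7218369 was inside at 6.5 in the TDCIPP table, and chromosome 13 at 49168492 to 49169911 was outside at 6.49. In the DAC table, chromosome 16 at 10583461 to 10584952 was inside at 4.52, and chromosome 1 at 13169594 to 13170484 was outside at 4.49.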

How the data were processed

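ATAC-seq was done on whole zebrafish embryos in 12 libraries, 3 in each of 4 groups. Per the submitters' processing notes, Bowtie2, Picard, MACS2, deepTools and DiffBind were used with GRCz11. The sources used here do not give versions, the treatment of reads that match several places, any Tn5 shift or the scaling. The 2 deposited tables hold, per the file headers, the authors' log2 concentrations (overall and per group), a log2 fold, a p-value and its adjusted p-value, headed FDR, for each region. A level is one of these log2 concentrations, and 2 raised to it is printed as normalized reads. No column held a single library, so the deposited values were used as they stand and no count test was run. Sequencing depth is therefore not known. Summed over the regions of a table, the mean normalized reads were 7753700 for TDCIPP and 7910862 for its DMSO group. They were 2065074 for DAC and 1880934 for its DMSO group.

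Regions of the 2 tables that shared at least 1 base were paired, the largest overlap first and each region once, with Python 3.11.15, pandas 2.3.3 and scipy 1.17.1. The pairing and the rule were checked on simulated data with planted members. There all levels passed the minimums, and no DAC region reached over several TDCIPP regions. No simulated background region could pass the TDCIPP threshold, so false members were not tried. The deposited fold equalled the difference of the 2 group levels within 0.01 in every region. The members and lists were chosen with earlier results of these data known. Regions were named by a rule: members with the lowest adjusted p for TDCIPP, the greatest differences, the widest, the highest, those nearest the thresholds, and the members of runs, given as spans with examples. Genes and sequences are not shown, because the gene table at hand follows another build. Alternatives for thresholds, levels, overlap, centring and sequence are given at the end.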

Additional observations from a re-analysis of the deposited data

How the results depend on the processing

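The members' number, 212, was 426 with a threshold of 0.1 and 78 with 0.3, 327 with level minimums lower by 0.5, 128 with an unadjusted p under 0.05 for TDCIPP required in the authors' deposited table, and 94 without the runs. Leaving out the runs, and every value of the share with a higher DMSO level in the DAC table, were alternatives chosen after seeing the data. In the order of threshold 0.1, threshold 0.3, levels higher by 0.5, levels lower by 0.5, the p required and no runs, the median width of 1774.5 bp became 1567, 2025.5, 1973, 1492, 1972 and 1429.5 bp. In that order the median TDCIPP table level of 7.84 became 7.50, 8.76, 9.28, 7.23, 9.17 and 7.13. The median DAC table level of 8.21 became 5.54, 9.62, 10.05, 5.17, 10.03 and 4.95, and 7.19 with centred differences. The share with another member within 50 kb, 55.7%, was 41.3% with a threshold of 0.1, 78.6% with higher and 40.7% with lower level minimums, 48.6% with centred differences and 64.1% with the p required. The share with the higher DMSO level in the DAC table, 59.9%, was 35.0%, 74.4%, 82.8%, 39.4%, 74.2% and 20.2% in the order above, and 51.0% with centred differences. Without the runs the chromosome with most members was 13, at 7.45%, in place of 8, at 12.3%, and with the p required it was 17, at 10.9%. The cause of these shifts was not tested. The other 35 values stayed within the set limits, among them the share on alternate and unplaced sequence. For the members' number these limits were wide. They took in 145 with level minimums higher by 0.5 and 259 with centred differences. No paired analysis was possible because each deposited table holds group means without single libraries, and leaving out each replicate was not run for the same reason. The low read counts of the DAC table limit what can be said of the weakly covered members.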

Other observations

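Of the 214 pairs with the higher DMSO level in the DAC table, 127 (59.3%) were members. A positive TDCIPP and a negative DAC difference of any size were found in 161 of the 214 (75.2%) and in 883 of all 11930 pairs. Both DMSO levels enter these differences, so nothing is read from these shares. Of the 11716 pairs with the usual order, 85 (0.726%) were members.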
